A study of Mus musculus with 8 samples.

Results

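Cytosolic ribosomal protein genes were examined in RAW264.7 cells, a mouse macrophage-like cell line. The members were the rows whose symbol starts with Rpl or Rps followed by a digit, together with Rplp0, Rplp1, Rplp2 and Rpsa, leaving out the S6 kinases and symbols that contain "-ps". The rule took 90 of 22013 rows. Of these, 54 carry large subunit symbols and 36 carry small subunit symbols. They comprised 77 canonical ribosomal protein genes (46 large and 31 small), 8 paralogs with an l suffix and 5 further rows. The 5 further rows are Rps27rt, Rpl27rt, Rpl35rt, Rps23rg1 and Rps19bp1, of which Rps19bp1 encodes a partner of a ribosomal protein and not a ribosomal protein.

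RNA sequencing had been carried out on 8 libraries, of which 4 came from cells given phosphate-buffered saline (PBS) and 4 from cells given recombinant follistatin-like 1 (rFSTL1), a secreted glycoprotein, at 100 ng/mL for 24 h. All libraries came from this 1 cell line, and the labels name no allele or second agent. Nothing in the labels states whether the 4 libraries of a group came from separate cultures, so p-values measure only the spread between these libraries, which may be technical. Library totals ranged from 15062023 to 20234477 counts. All 10 macrophage markers were detected, with summed levels of 4699 to 4850 CPM (counts scaled to a common library total) under PBS and 4761 to 4928 CPM under rFSTL1. The 3 T cell markers were at 0 in every library, and the summed B cell, epithelial, fibroblast, endothelial and hepatocyte markers each reached at most 1.09 CPM.

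Each ribosome joins a small subunit, which reads the mRNA, to a large subunit, which forms peptide bonds, and each subunit is built from ribosomal RNA and a set of small, mostly basic proteins. Mammalian ribosomal proteins are made in matched amounts, and their mRNAs usually begin with a C followed by a run of pyrimidines, the 5′ terminal oligopyrimidine (TOP) tract, through which growth signals relayed by mTORC1 govern their translation. Macrophages, like other cells, spend much of their mRNA on these proteins, and several of them have further roles outside the ribosome.

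The start of 6 members is shown, chosen from the 14 that hold a tract exactly at an annotated start, and then that of 3 paralogs, which like most members with a sequence hold none there. Each window has 30 bases, of which 15 lie before the annotated start and 15 run from it, taken from RefSeq promoter sequences of GRCm38.p6 on the strand of the gene. Capitals mark a tract that begins exactly at the annotated start, defined as C followed by at least 4 bases that are C or T.
Rpl28: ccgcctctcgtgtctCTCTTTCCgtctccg
Rplp2: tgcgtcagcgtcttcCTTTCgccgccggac
Rps6: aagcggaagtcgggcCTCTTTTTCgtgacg
Rps21: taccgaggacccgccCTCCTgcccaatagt
Rps27: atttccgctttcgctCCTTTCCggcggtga
Rps18: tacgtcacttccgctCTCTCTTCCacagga
Rps27l: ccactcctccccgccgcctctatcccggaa
Rpl22l1: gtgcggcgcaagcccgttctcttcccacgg
Rpl7l1: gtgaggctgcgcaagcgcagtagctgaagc
The plus-strand windows are chr7:4792950-4792979 (Rpl28), chr7:141447636-141447665 (Rplp2), chr2:180257364-180257393 (Rps21, whose second annotated start holds no tract), chr9:66946071-66946100 (Rps27l, the first of its annotated starts) and chr3:28805493-28805522 (Rpl22l1). The minus-strand windows are chr4:86857353-86857382 (Rps6), chr3:90213634-90213663 (Rps27), chr17:33955651-33955680 (Rps18) and chr17:46782642-46782671 (Rpl7l1). Each window spans the end of the upstream sequence and the first bases of the transcript.

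Promoter sequences were matched for 67 members. A tract exactly at an annotated start was found in 14 of them (20.9%), against 3.01% of 27025 genes with a promoter sequence. With the start allowed to shift by up to 5 bases, 46.3% of the matched members and 21.2% of all genes held one. Members with a tract at the start had a median log2 fold change of 0.15 (13 tested), and those without had 0.10 (49 tested). With the shift allowed, both medians were 0.11, so the difference between the tract classes depended on the exact start annotation.

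Ribosomal protein genes made up 4.44, 4.27, 4.25 and 4.21% of all counts in PBS replicates 1 to 4, and 4.34, 4.73, 4.73 and 4.62% in rFSTL1 replicates 1 to 4. Under PBS the mean share was 4.29% ± 0.10 (SD, n = 4), and in cells given rFSTL1 it was 4.61% ± 0.18 (SD, n = 4). In 3 rFSTL1 libraries the share exceeded that of every PBS library, whereas rFSTL1 replicate 1 lay within the PBS range, so the groups overlapped. Shares of counts are relative to all other RNA in a library, and more cells that make a given RNA cannot be told apart from more of that RNA per cell.

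Large subunit genes held 2.57 to 2.71% of counts under PBS and 2.65 to 2.89% under rFSTL1. The corresponding shares of small subunit genes were 1.64 to 1.73% and 1.69 to 1.86%. The log2 ratio of large to small subunit counts was 0.65, 0.65, 0.66 and 0.65 in the PBS libraries and 0.65, 0.63, 0.65 and 0.65 in the rFSTL1 libraries. Under PBS it averaged 0.652 ± 0.00365 (SD, n = 4), and with rFSTL1 it averaged 0.644 ± 0.0115 (SD, n = 4), a difference of -0.00798 that is below the SD within the rFSTL1 group and was -0.00256 without rFSTL1 replicate 2. The lowest ratio belonged to rFSTL1 replicate 2, and the other 7 libraries had ratios of 0.646 to 0.657.

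**Figure D1:**
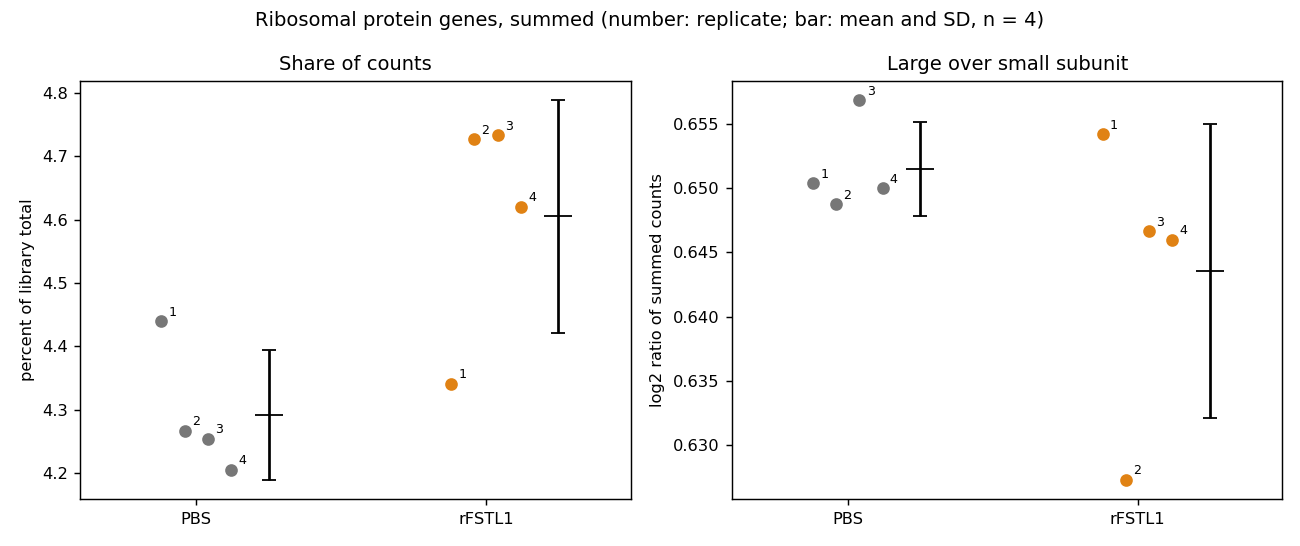
Percent of each library's total count on ribosomal protein genes (left) and log2 ratio of large to small subunit counts (right), by treatment, with 1 point per library, its replicate number, and a bar for the mean and SD (n = 4). The vertical axes do not start at 0. rFSTL1 replicates 2, 3 and 4 lie above every PBS library in share, at 4.62 to 4.73%, while replicate 1 (4.34%) lies among them, and the subunit ratio stays between 0.63 and 0.66.

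Of the 90 members, 83 passed the expression filter and were tested with the other genes, 10748 in all. By edgeR's quasi-likelihood test, 0 of 83 had a Benjamini-Hochberg adjusted p under 0.05, where 0.344% of all tested genes did (37 genes). At an unadjusted p under 0.05, 43 members were higher under rFSTL1 and 0 were lower, against 8.29% and 7.56% of all tested genes. The calls depended on the test. DESeq2 gave 15 members an adjusted p under 0.05, all higher under rFSTL1 (1.27% of all tested genes were called higher), and limma voom with sample quality weights gave 25 (2.27%). With edgeR's upper-quartile scaling 3 members were called (0.502% of all genes higher), and 12 were called when every gene with a count was fitted (0.686% higher).

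Fold changes were small and mostly of 1 sign. The fitted log2 fold change, rFSTL1 over PBS, was above 0 in 81 of 83 members and in all 77 canonical genes, where 52.0% of all tested genes were above 0. Its median was 0.12 over the members, with quartiles of 0.06 and 0.21, against 0.01 over all tested genes. Large subunit members (50 tested, median 0.12) and small subunit members (33 tested, median 0.11) had near-equal medians. Without rFSTL1 replicate 2 the median was 0.07 over the members, 0.07 for the large subunit and 0.08 for the small subunit. Every rFSTL1 library was above every PBS library in 14 members, where 4.63% of all tested genes showed this, and in 0 members was every rFSTL1 library below (3.53%). Removing a trend over length and GC content, fitted to all genes in each library, brought the median to 0.02 and the number above 0 to 55 of 83, and the direction of many single members rested on that setting.

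**Figure D2:**
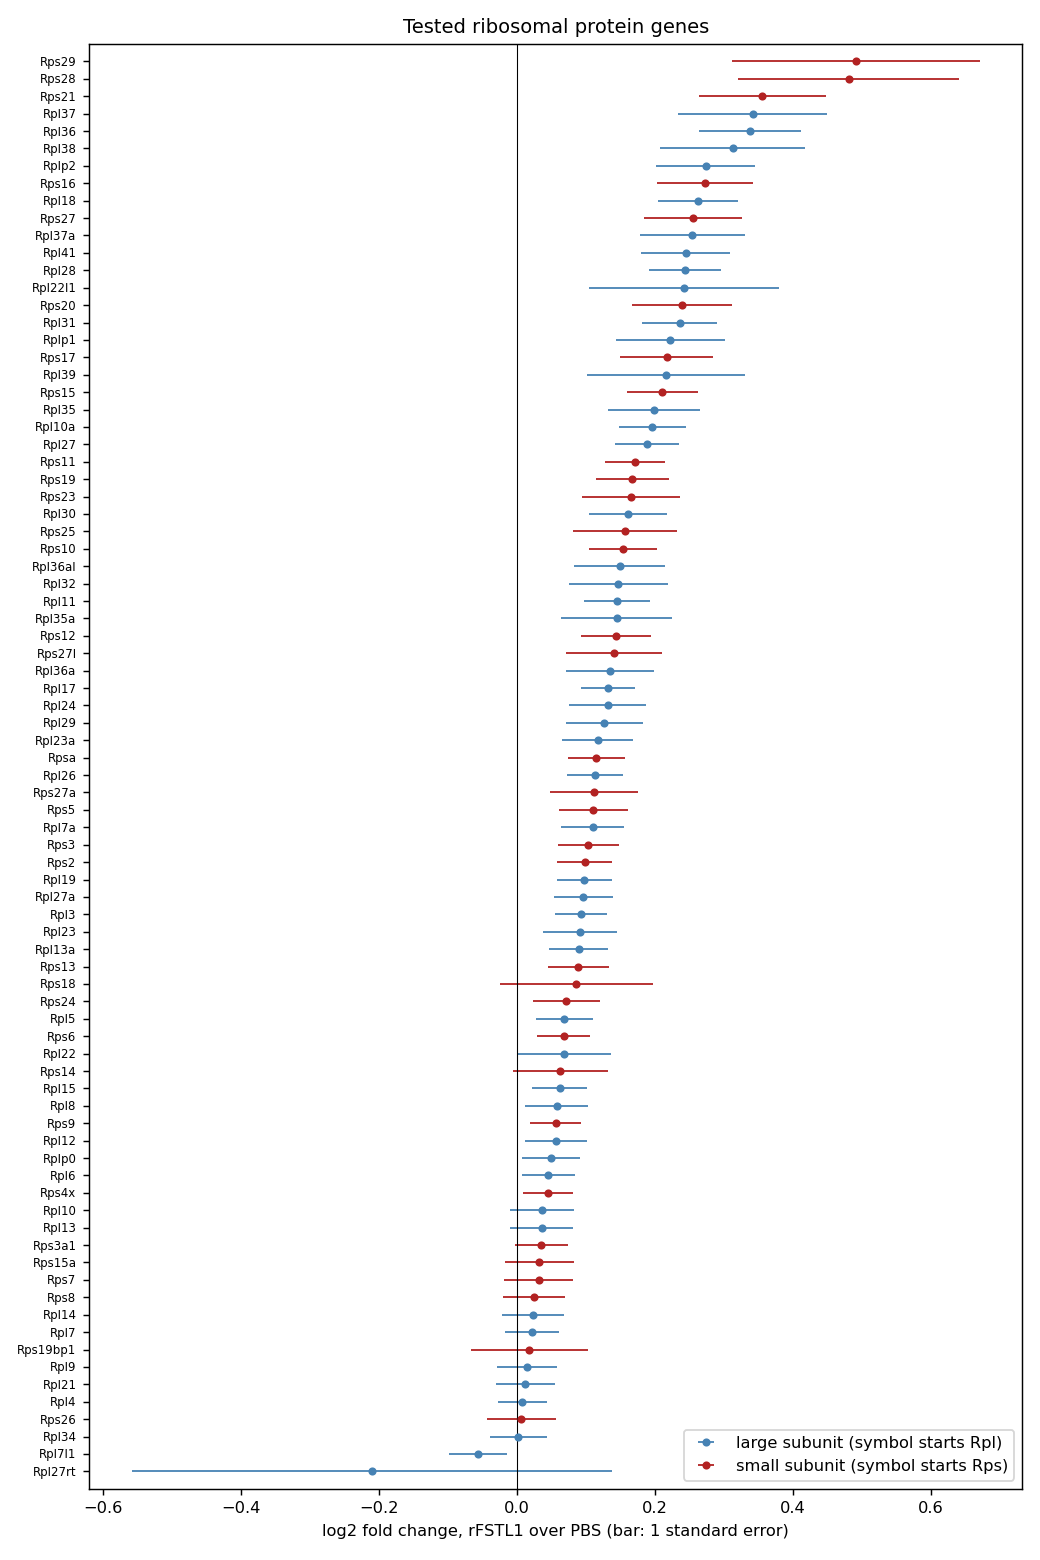
Fitted log2 fold change (rFSTL1 over PBS, horizontal axis) of the tested members reported here, ordered by size on the vertical axis and coloured by subunit symbol, with bars of 1 standard error. Rps29 (0.49) and Rps28 (0.48) stand at the top and Rpl27rt (-0.21) at the bottom, with large and small subunit genes mixed throughout.

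Levels were not raised evenly across the rFSTL1 libraries. On the log2(CPM + 1) scale, the median deviation of the members from the PBS mean was 0.05, 0.00, -0.01 and -0.03 in PBS replicates 1 to 4. In rFSTL1 replicates 1 to 4 it was 0.02, 0.19, 0.15 and 0.09. Replicate 1 exceeded the highest PBS library in 23 of 83 members, whereas replicates 2, 3 and 4 did so in 65, 71 and 47. Among the PBS libraries, replicate 1 was the highest in 58 members. The highest value over all 8 libraries fell in rFSTL1 replicate 2 for 46 members, in replicate 4 for 17, in replicate 3 for 15, and in PBS libraries for the remaining 5. Without replicate 2 the log2 fold change was 0.11 for Rplp1, 0.03 for Rpl39, 0.06 for Rpl22l1, 0.05 for Rps27l, 0.04 for Rpl36a, 0.08 for Rpl36al and 0.05 for Rpl23a. Without rFSTL1 replicate 1, edgeR gave 16 members a Benjamini-Hochberg adjusted p under 0.05 (0.785% of all genes then tested were called higher).

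**Figure D3:**
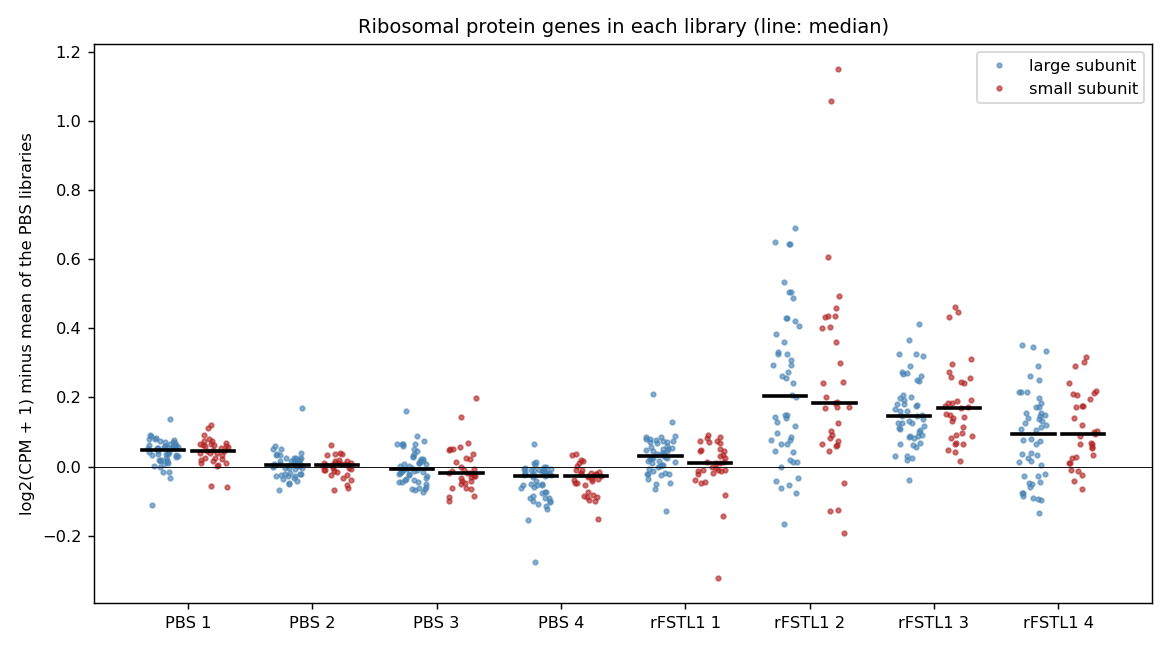
Deviation of each tested member from the mean of the PBS libraries on the log2(CPM + 1) scale (vertical axis) in each of the 8 libraries (horizontal axis), for large and small subunit genes, with a line at the median. rFSTL1 replicate 1 lies with the PBS libraries near 0, and replicate 2 has the widest spread, with Rps29 and Rps28 above 1.

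Within the members, the difference between treatments was larger for the shorter genes. Coding length was used here, and the members were divided into 3 classes. The 28 members with up to 399 coding bases had a median log2 fold change of 0.22. The 27 members of 405 to 552 bases had 0.13, and the 28 of 564 bases or more had 0.06. In rFSTL1 replicate 2 the median deviations of these classes were 0.43, 0.20 and 0.08, and in replicate 3 they were 0.19, 0.17 and 0.09. Replicate 4 had 0.09, 0.11 and 0.09, and replicate 1 had 0.02, 0.04 and 0.02, so the gradient was carried by replicates 2 and 3.

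Across the 83 members, Pearson's r between log2 coding length and deviation was -0.69 in rFSTL1 replicate 2 and -0.58 in replicate 3, against -0.11 in replicate 4 and -0.01 in replicate 1. Among PBS libraries it was 0.22, -0.07, -0.51 and 0.43 in replicates 1 to 4. Genes within a library share its depth and are not independent, and these values describe the libraries. For the GC content of the transcript, r with the deviation was 0.29 over the members and 0.50 over the 10636 other tested genes with a known length in rFSTL1 replicate 3, and 0.52 and 0.66 in replicate 4. The 1005 shortest of those other genes, with transcripts of up to 1187 bases, had a median log2 fold change of 0.08, which was -0.01 once the trend was removed. Before that removal 739 of the 1005 were above 0, and at an unadjusted edgeR p under 0.05, 207 were higher and 16 lower. In 85 of the 1005 every rFSTL1 library was above every PBS library, and in 7 every rFSTL1 library was below. The part that length and GC content have in the members' fold changes was not tested beyond removing the trend, after which the 3 classes had medians of 0.08, 0.01 and -0.01.

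**Figure D4:**
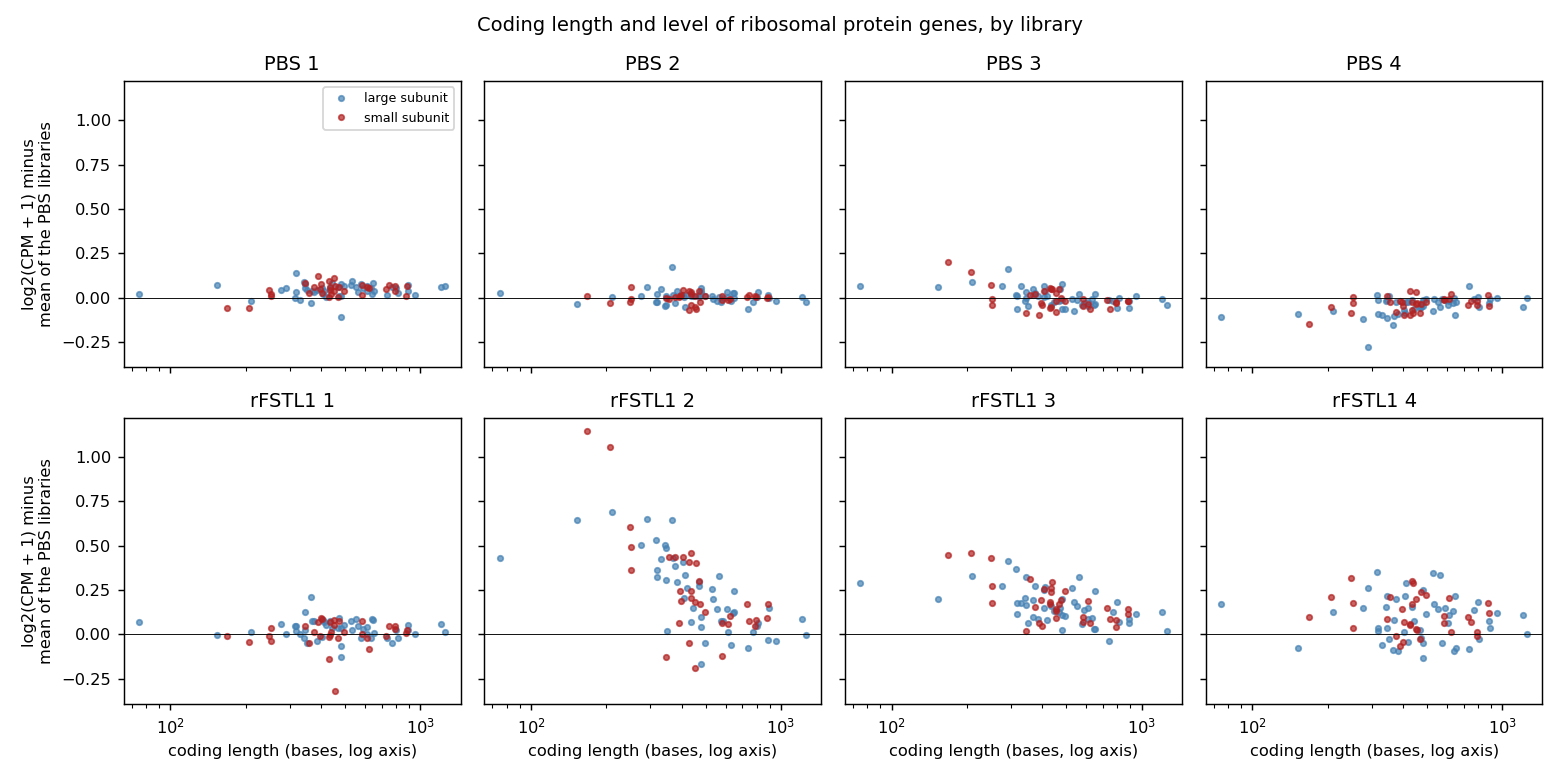
Deviation of each tested member from the PBS mean (log2(CPM + 1), vertical axis) against its coding length in bases (horizontal log axis), with 1 panel per library and colours for the subunits. The points slope down with length in rFSTL1 replicates 2 and 3 (r of -0.69 and -0.58) and lie flat in replicate 1 (-0.01).

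The members with the smallest p-values were 7 large subunit genes and Rps15. Rpl28 (ENSMUSG00000030432), a large subunit protein specific to eukaryotes, was at 312, 293, 312 and 299 CPM under PBS and 319, 383, 366 and 372 CPM under rFSTL1. Every rFSTL1 library was above every PBS library, although replicate 1 was higher than the highest PBS library by a narrow margin. Its log2 fold change was 0.24 (SE 0.05) with an edgeR Benjamini-Hochberg adjusted p of 0.0611, which ranged from 0.00393 to 0.281 over the alternatives. Rpl18 (ENSMUSG00000059070), another large subunit protein, was at 268, 263, 267 and 254 CPM under PBS and 271, 330, 329 and 332 CPM under rFSTL1. Again replicate 1 stayed next to the PBS libraries. The log2 fold change of Rpl18 was 0.26 (SE 0.06) with an edgeR Benjamini-Hochberg adjusted p of 0.0626 (0.00473 to 0.281 over the alternatives), and it was 0.09 with the length and GC trend removed.

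Rpl36 (ENSMUSG00000057863), one of the smaller large subunit proteins, was at 104, 103, 106 and 105 CPM under PBS and 108, 152, 135 and 134 CPM under rFSTL1. The PBS libraries were tightly grouped (104 ± 1.44, SD, n = 4), and all rFSTL1 libraries were above them (132 ± 18.1, SD, n = 4). The log2 fold change of Rpl36 was 0.34 (SE 0.07) with an edgeR Benjamini-Hochberg adjusted p of 0.0626, and it was 0.07 with the length and GC trend removed.

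Rpl31 (ENSMUSG00000073702), which lies at the rim of the peptide exit tunnel, was at 340, 326, 340 and 328 CPM under PBS and 351, 435, 402 and 383 CPM under rFSTL1. The groups did not overlap, and replicate 2 was the highest. For Rpl31 the log2 fold change was 0.24 (SE 0.05) with an edgeR Benjamini-Hochberg adjusted p of 0.0731, and 0.22 with the trend removed. Rps15 (ENSMUSG00000063457), a small subunit protein needed for late maturation of that subunit, was at 493, 460, 489 and 449 CPM under PBS and 496, 544, 566 and 583 CPM under rFSTL1. Its groups were separate by the small gap between replicate 1 of each. For Rps15 the log2 fold change was 0.21 (SE 0.05) with an edgeR Benjamini-Hochberg adjusted p of 0.089, and it was 0.01 with the trend removed.

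Rpl27 (ENSMUSG00000063316) was at 356 to 396 CPM under PBS and 400 to 450 CPM under rFSTL1, with a log2 fold change of 0.19 (SE 0.05) and an edgeR Benjamini-Hochberg adjusted p of 0.0951. Rpl10a (ENSMUSG00000037805), a protein of the mobile L1 stalk at which spent tRNA leaves, was at 306 to 348 CPM under PBS and 347 to 390 CPM under rFSTL1, so that its groups overlapped. Its log2 fold change was 0.20 (SE 0.05), with an edgeR Benjamini-Hochberg adjusted p of 0.0979. With the trend removed Rpl27 was at 0.06 and Rpl10a at 0.07. In all, 8 members had an adjusted p under 0.1, where 1.03% of all tested genes were called higher. With the length and GC trend removed, edgeR gave 4 members an adjusted p under 0.05 (0.754% of all genes were then called higher). The count was 5 with the replicate block added (0.716%), 2 with a trend over the longest transcript (0.568%) and 4 with the trend fitted without the members (0.754%). Rps20, Rpl28 and Rpl31 were among the 4 with the trend removed, of which Rps20 was named after its values were seen. Rps20 was at 190 to 197 CPM under PBS and 187 to 261 CPM under rFSTL1, and its annotated transcript of 3706 bases is far longer than its coding sequence of 357 bases.

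The largest fold changes belonged to short members and were led by rFSTL1 replicate 2. Rps29 (ENSMUSG00000034892), a zinc-binding small subunit protein with a coding length of 168 bases, was at 142, 149, 169 and 133 CPM under PBS and 147, 328, 202 and 158 CPM under rFSTL1. Replicate 2 stood far above every other library, replicate 3 was above the PBS range, and replicates 1 and 4 lay inside it. For Rps29 the log2 fold change was 0.49 (SE 0.18) with an edgeR Benjamini-Hochberg adjusted p of 0.216, and it was 0.18 without replicate 2. Rps28 (ENSMUSG00000067288), found near the mRNA exit of the small subunit, was at 79.4, 80.8, 91.3 and 79.6 CPM under PBS and 80.0, 173, 114 and 95.6 CPM under rFSTL1. Its log2 fold change was 0.48 (SE 0.16) with an edgeR Benjamini-Hochberg adjusted p of 0.191, and 0.22 without replicate 2.

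Rps21 (ENSMUSG00000039001), whose start is shown above, was at 99.2, 94.5, 101 and 90.5 CPM under PBS and 95.5, 147, 130 and 120 CPM under rFSTL1. In this gene replicate 1 lay inside the PBS range and the others lay outside it. For Rps21 the log2 fold change was 0.36 (SE 0.09), with an edgeR Benjamini-Hochberg adjusted p of 0.103. Rpl37 (ENSMUSG00000041841), a zinc-binding large subunit protein, was at 217, 218, 234 and 172 CPM under PBS and 210, 329, 278 and 251 CPM under rFSTL1, with a log2 fold change of 0.34 (SE 0.11) and an edgeR Benjamini-Hochberg adjusted p of 0.171, and it was 0.22 without replicate 2. With the trend removed Rps29 and Rps28 were both at 0.27 and Rps21 at 0.17. Measured directly, replicate 2 minus the mean of replicates 3 and 4 was 0.87 for Rps29 and 0.72 for Rps28 on the log2(CPM + 1) scale. It was -0.36 for Rps14 and -0.18 for Rps26, and over all 83 members it was above 0 in 53 and below 0 in 30.

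At the other end, Rpl34 (ENSMUSG00000062006) and Rps26 (ENSMUSG00000025362), the latter a protein of the mRNA exit channel, had near-equal levels in both groups. Rpl34 was at 205 to 218 CPM under PBS and 205 to 222 CPM under rFSTL1, with a log2 fold change of 0.00 (SE 0.04) whose sign turned under several settings. Rps26 was at 580 to 652 CPM under PBS and 563 to 655 CPM under rFSTL1, with a log2 fold change of 0.01 (SE 0.05) that was -0.07 with the trend removed. Both have short coding sequences (351 and 345 bases), and their fold changes were barely above 0, far below the median of 0.22 of the shortest class. The lowest fold change, -0.21 (SE 0.35), was that of Rpl27rt, a row with 0.43 to 0.73 CPM in all libraries and values that were not whole counts.

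Per kilobase of annotated transcript, the highest mean levels over the 8 libraries were those of Rpl23a (1530 CPM per kb), Rplp0 (1502), Rps2 (1486) and Rpl4 (1463). These 4 genes had log2 fold changes of 0.12 (SE 0.05), 0.05 (SE 0.04), 0.10 (SE 0.04) and 0.01 (SE 0.04), in that order. Rpl4, which lines the exit tunnel, was at 2182 to 2343 CPM under PBS and 2239 to 2271 CPM under rFSTL1, the rFSTL1 values lying inside the PBS range. With the trend removed the fold changes of Rplp0, Rps2 and Rpl4 were below 0, and that of Rpl23a was 0.005. The lowest mean levels per kilobase among tested members were those of Rpl27rt (0.342), Rps19bp1 (23.0), Rpl22l1 (27.0) and Rps18 (50.8 CPM per kb).

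The low level of Rps18, a small subunit protein present once in each ribosome, came with a near-identical copy elsewhere in the table. Transcripts of Rps18 and Rps18-ps6 matched at 540 of 545 aligned bases (99.1%), and Rps18 carried 3.92 to 5.79% of the counts of the pair. The summed level of the pair was 550, 568, 576 and 515 CPM under PBS and 559, 636, 644 and 611 CPM under rFSTL1. On the sum, 3 of the rFSTL1 libraries were above every PBS library and replicate 1 was within them. Rpl10, which matched Rpl10-ps3 at all 740 aligned bases, carried 52.4 to 61.1% of the pair's counts, and the summed level of that pair was 958 to 1040 CPM under PBS and 1000 to 1039 CPM under rFSTL1. In all, 19 members had a value that was not a whole count, and the 16 of them that were tested had a median log2 fold change of 0.12. The 67 tested members with whole counts had 0.11.

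The stalk proteins recruit translation factors to the large subunit, with Rplp0 (ENSMUSG00000067274) as the base that binds dimers of Rplp1 and Rplp2. Rplp0 was at 2021, 1978, 2020 and 2000 CPM under PBS and 2004, 1948, 2167 and 2179 CPM under rFSTL1, so replicate 2 was the lowest library. Rplp1 (ENSMUSG00000007892) was at 513, 467, 477 and 476 CPM under PBS and 475, 686, 557 and 537 CPM under rFSTL1. Rplp2 (ENSMUSG00000025508) was at 176, 164, 169 and 168 CPM under PBS and 172, 238, 212 and 197 CPM under rFSTL1. In both dimer genes replicate 2 was the highest and replicate 1 lay within the PBS range.

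The log2 fold changes of the stalk genes were 0.05 (SE 0.04) for Rplp0, 0.22 (SE 0.08) for Rplp1 and 0.27 (SE 0.07) for Rplp2, with edgeR Benjamini-Hochberg adjusted p-values of 0.581, 0.211 and 0.107. With the length and GC trend removed they were -0.01, 0.02 and 0.17. Within libraries, the log2 ratio of Rplp2 to Rplp0 was -3.52, -3.58, -3.57 and -3.57 under PBS and -3.53, -3.03, -3.34 and -3.46 under rFSTL1. The log2 ratio of Rplp1 to Rplp0 was -1.98, -2.08, -2.08 and -2.07 under PBS and -2.07, -1.51, -1.96 and -2.02 under rFSTL1, so replicate 2 alone stood well apart. The stalk genes differ in coding length (342 and 345 bases for Rplp1 and Rplp2, 951 for Rplp0), and no test was made of these ratios. Rpsa (ENSMUSG00000032518), a small subunit protein also known as the laminin receptor precursor, was at 1818, 1744, 1720 and 1683 CPM under PBS and 1770, 1960, 1923 and 1891 CPM under rFSTL1, with a log2 fold change of 0.12 (SE 0.04).

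Of the 8 paralogs with an l suffix, 4 passed the filter and none of these had an edgeR Benjamini-Hochberg adjusted p under 0.05 (lowest 0.286, 1 with an unadjusted p under 0.05), nor did any under DESeq2 or limma voom. Rpl10l, Rpl39l and Rps4l had no count in any library, and Rpl10l and Rpl39l are best known from the testis. Rpl3l, a paralog of striated muscle, had 16 counts in the PBS libraries together and 43 in the rFSTL1 libraries. At 1 to 7 counts per PBS library and 4 to 14 per rFSTL1 library the groups overlapped. When all genes with a count were fitted, Rpl3l had a log2 fold change of 1.41 (SE 0.59) with an edgeR Benjamini-Hochberg adjusted p of 0.276.

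Rps27l (ENSMUSG00000036781), which is induced by p53 in several cell types, was at 114, 118, 110 and 111 CPM under PBS and 110, 146, 128 and 116 CPM under rFSTL1. Its parent Rps27 (ENSMUSG00000090733) was at 169, 165, 165 and 166 CPM under PBS and 170, 235, 201 and 188 CPM under rFSTL1, with no overlap between groups and replicate 2 highest in both genes. The log2 fold change was 0.14 (SE 0.07) for Rps27l and 0.26 (SE 0.07) for Rps27, with edgeR Benjamini-Hochberg adjusted p-values of 0.331 and 0.134. The log2 ratio of Rps27l to Rps27 was -0.56, -0.48, -0.59 and -0.58 under PBS and -0.62, -0.68, -0.65 and -0.69 under rFSTL1. All rFSTL1 libraries were below all PBS libraries, with a difference of -0.11 (two-sided exact permutation p = 0.0286, the smallest that 4 against 4 libraries allow, and 0.114 after Benjamini-Hochberg adjustment over 4 pairs). With the length and GC trend removed the fold changes of the pair were 0.06 for Rps27l and 0.07 for Rps27. Without rFSTL1 replicate 2 that of Rps27 was 0.16. Rps27 shares all 341 aligned bases with Rps27rt, whose 46 counts under PBS and 57 under rFSTL1 are few beside it.

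Rpl22l1 (ENSMUSG00000039221), the low-level partner of Rpl22, was at 13.2, 15.4, 13.7 and 12.1 CPM under PBS and 15.8, 21.7, 14.6 and 12.7 CPM under rFSTL1. Only replicates 1 and 2 were above every PBS library. Its log2 fold change was 0.24 (SE 0.14) and that of Rpl22 was 0.07 (SE 0.07). The value of Rpl22 was -0.02 without rFSTL1 replicate 2 and -0.05 with the length and GC trend removed. The log2 ratio of the pair differed by 0.15 between groups (two-sided exact permutation p = 0.171) and by 0.09 without rFSTL1 replicate 2. Rpl36al was at 131 to 154 CPM under PBS and 143 to 176 CPM under rFSTL1, close to Rpl36a at 158 to 165 and 163 to 207 CPM. With the trend removed their fold changes were 0.02 and 0.03. The log2 ratio of Rpl36al to Rpl36a differed by 0.02 (two-sided exact permutation p = 0.743).

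Rpl7l1, a pre-ribosome factor related to Rpl7, was at 156 to 171 CPM under PBS and 154 to 161 CPM under rFSTL1, with a log2 fold change of -0.06 (SE 0.04). Its log2 ratio to Rpl7 differed by -0.08 (two-sided exact permutation p = 0.257) and by -0.04 without PBS replicate 4. Over the 4 pairs no ratio had a Benjamini-Hochberg adjusted exact permutation p under 0.05. Rpl10 and Rpl39, the parents of the undetected Rpl10l and Rpl39l, had log2 fold changes of 0.04 (SE 0.05) and 0.22 (SE 0.11), and Rpl3, the parent of Rpl3l, had 0.09 (SE 0.04).

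**Figure D5:**
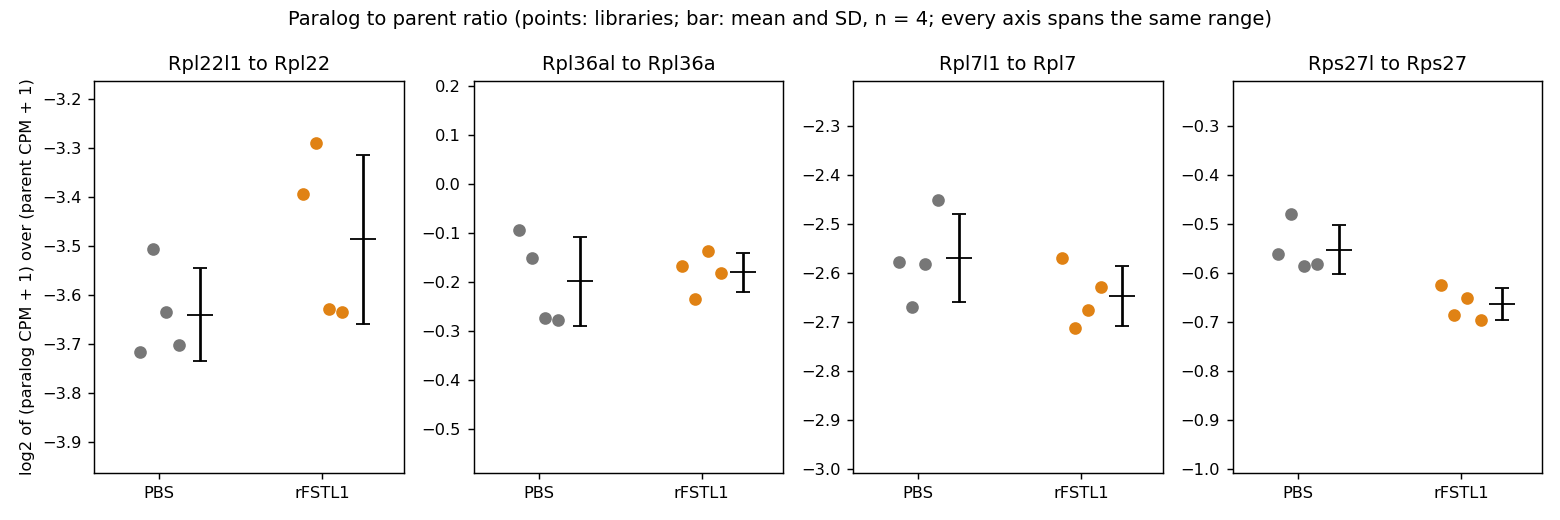
Log2 ratio of paralog to parent level, (CPM + 1) over (CPM + 1), for the 4 pairs with a tested paralog (vertical axes of equal span), by treatment, with 1 point per library and a bar for the mean and SD (n = 4). The groups are apart only for Rps27l to Rps27 (-0.55 under PBS and -0.66 under rFSTL1 on average).

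Several members act outside the ribosome, and none of these had an edgeR Benjamini-Hochberg adjusted p under 0.05. With limma voom, Rpl11 (adjusted p 0.0473), Rpl26 (0.0468) and Rps19 (0.036) were called, where 2.27% of all tested genes were called higher. Rpl5 and Rpl11, which with 5S rRNA bind MDM2 and so release p53, had log2 fold changes of 0.07 (SE 0.04) and 0.15 (SE 0.05). Rpl11 was at 450, 421, 401 and 419 CPM under PBS and 429, 486, 478 and 476 CPM under rFSTL1, with replicate 1 inside the PBS range. Rpl23 and Rpl26, which also act on this pathway, had 0.09 (SE 0.05) and 0.11 (SE 0.04). Rpl26 was at 447 to 478 CPM under PBS and 482 to 515 CPM under rFSTL1 without overlap, although its fold change was -0.01 with the trend removed.

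Rpl13a, a part of the interferon-activated GAIT complex that silences inflammatory mRNAs in myeloid cells, was at 507 to 534 CPM under PBS and 523 to 577 CPM under rFSTL1 (log2 fold change 0.09, SE 0.04). Rps3, which binds the p65 subunit of NF-κB, was at 599 to 637 CPM under PBS and 612 to 695 CPM under rFSTL1 (0.10, SE 0.04). Rps6, the substrate of S6 kinase, was at 1086, 1047, 991 and 1022 CPM under PBS and 1069, 1091, 1101 and 1085 CPM under rFSTL1 (0.07, SE 0.04). Rps27a, which is made as a fusion with ubiquitin, had a log2 fold change of 0.11 (SE 0.06). Without rFSTL1 replicate 2 the values of Rps27a, Rpl23 and Rpl5 were 0.04, 0.02 and 0.03, and with the trend removed Rps27a was at 0.02, Rpl11 at 0.04 and Rpl13a and Rps6 at 0.00, while Rpl5 was at 0.13. Rps19 and Rps14, whose loss impairs red cell formation, had 0.17 (SE 0.05) and 0.06 (SE 0.07), and both were below 0 with the trend removed. The value of Rps14 ran from 0.02 (without rFSTL1 replicate 4) to 0.13 (without rFSTL1 replicate 2) with 1 library left out. For each of these genes the groups overlapped, apart from Rpl26.

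Related genes were set beside the members. Fau and Rack1, which encode ribosomal proteins under other symbols, had log2 fold changes of 0.13 (SE 0.05) and 0.11 (SE 0.04), and neither had an edgeR Benjamini-Hochberg adjusted p under 0.05. The list of 3 such genes had a median of 0.11. With the length and GC trend removed its median was -0.07, with 1 of 3 above 0. Of 78 mitochondrial ribosomal protein genes 55 were above 0 and 0 passed the edgeR threshold of 0.05, with a median of 0.04. At an unadjusted p under 0.05, 12 of the 78 were higher and 0 lower (8.29% and 7.56% of all tested genes). With limma voom 2 of the 78 were called in either direction, against 454 of all 10748 tested genes. With the length and GC trend removed 38 of the 78 were above 0 and the median was -0.00. Other genes listed as TOP genes, mostly translation factors, were above 0 in 7 of 15, with a median of -0.00 and 0 past the threshold. The starts of these 15 genes were not examined for a tract here. Among them the translation factor Eef1a1 was at 8014 to 8509 CPM under PBS and 8299 to 8766 CPM under rFSTL1.

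Ribosome biogenesis factors were above 0 in 15 of 40, with a median of -0.01 and 0 past the edgeR threshold. At an unadjusted p under 0.05, 7 were lower and 0 were higher (7.56% and 8.29% of all tested genes). With limma voom 2 of the 40 were called in either direction, against 454 of all 10748 tested genes. In 5 of the 40 every rFSTL1 library was below every PBS library (3.53% of all tested genes), Ncl, the nucleolar protein nucleolin, among them at 2934 to 3004 CPM under PBS and 2562 to 2889 CPM under rFSTL1. Genes of growth and mTORC1 control were above 0 in 12 of 16 (52.0% of all tested genes were), with a median of 0.04 and 0 past the threshold, and in 9 of 16 with a median of 0.02 once the trend was removed. In this list DESeq2 and edgeR with the trend removed each called 1 gene and limma voom called 2, in either direction. Over all 10748 tested genes, DESeq2 called 197, edgeR with the trend removed 100 and limma voom 454. Among the 16, Eif4ebp1, the translation repressor 4E-BP1 that mTORC1 phosphorylates, was at 29.4 to 41.5 CPM under PBS and 45.0 to 57.4 CPM under rFSTL1 without overlap, with a log2 fold change of 0.43 (SE 0.10, edgeR Benjamini-Hochberg adjusted p = 0.0673). The 6 p53 pathway genes were above 0 in 3, with a median of 0.02. Of these 6, Cdkn1a, the cell cycle inhibitor p21, was at 24.4 to 28.6 CPM under PBS and 34.8 to 39.0 CPM under rFSTL1 and rose by a log2 fold change of 0.50 (SE 0.07, edgeR Benjamini-Hochberg adjusted p = 0.00363). The other genes of that list did not pass the test, with Sesn1 at -0.22 (SE 0.07) and Ccng1 at -0.18 (SE 0.06) lower at an unadjusted p under 0.05 and Bax at 0.16 (SE 0.06) higher.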

How the data were processed

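Poly(A) RNA of RAW264.7 cells was sequenced in 8 libraries (4 PBS, 4 rFSTL1), grouped by the treatment label. The authors deposited expected counts (estimated counts) of 22013 genes without normalization. The submitters' processing notes name Bowtie2 2.2.8, HISAT2, StringTie 1.3.1 and DESeq2 without roles, and the genome build and annotation are not given in the sources used here. Of the nonzero values 13.0% were not whole and all were rounded. Library preparation was not stated to keep strand, so reads of overlapping genes and antisense partners cannot be told apart. Reads shared by near-identical copies cannot be told apart whatever the strand.

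Genes were filtered with filterByExpr (minimum count 10), scaled by TMM and compared with edgeR 4.0.16 (glmQLFit, glmQLFTest; R 4.3.3) over 10748 genes, adjusted by Benjamini-Hochberg (threshold 0.05). The fit was tested on simulated data. CPM values are counts scaled by TMM-adjusted library totals to a common size. Single values were compared by a two-sided exact permutation test over 70 assignments on log2(CPM + 1), whose smallest p is 0.0286. The alternatives were DESeq2 1.42.0, limma 3.58.1 voom with sample quality weights, other scalings and filters, a replicate block, removal of a spline trend over length and GC in each library (4 degrees of freedom, GENCODE M21 on GRCm38) and leaving out each library. A trend over the longest transcript and a trend fitted without the members were added after seeing the data. A principal coding transcript represented each gene unless stated. Libraries of a group differed by more than sampling noise. The chi-square per degree of freedom was 3.03 to 4.21 for pairs of PBS libraries and 4.52 to 19.1 for pairs of rFSTL1 libraries.

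Members, lists and tests were chosen with earlier results of these data known. The named genes are the 8 members with the smallest p, the 4 highest and 4 lowest in fold change and in level per length, the paralogs and their parents, the stalk genes and Rpsa, and members with known roles outside the ribosome, of which 1 is not reported here. Counting error and 4 libraries per group limit precision. No protein sequences were used.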

Additional observations from a re-analysis of the deposited data

Results flagged for a closer look

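In 104 groups of 4 libraries, 4 had 1 library far from the other three by Dixon's criterion, and chance alone gives about 1 group in 20, or 5.2 here. Rpl18 was at 271 CPM in rFSTL1 replicate 1, against 329 to 332 CPM in the other rFSTL1 libraries, and Rpl11 was at 429 CPM in the same library, against 476 to 486 CPM. Rps28 was at 91.3 CPM in PBS replicate 3, against 79.4 to 80.8 CPM in the other PBS libraries. Rpl27rt was at 0.733 CPM in rFSTL1 replicate 3, against 0.431 to 0.468 CPM in the others, a row with few counts.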

How the results depend on the processing

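Depth (15062023 to 20234477 counts) leaves counting error small for most members, so the spread between 4 libraries sets the limit, and low members such as Rpl27rt and Rpl3l had few counts. The number of members with an adjusted p under 0.05 (edgeR, Benjamini-Hochberg: 0) was 15 with DESeq2, 25 with limma voom, 3 with upper-quartile scaling, 12 with all genes that had a count, 4 with the length and GC trend removed, 5 with that trend and the replicate block, 2 with a trend over the longest transcript, 4 with the trend fitted without the members and 8 at a threshold of 0.1. It was 0 with the replicate block alone, library totals, scaling without the members or a minimum count of 50. Leaving out 1 library gave 0 to 16, the 16 being without rFSTL1 replicate 1. The numbers 1 to 4 did not pair the libraries (correlations of -0.018, 0, -0.01 and -0.013 between same-numbered libraries), and the replicate block alone changed no call.

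The median log2 fold change was 0.0205 with the trend removed, 0.0202 with the block added, 0.049 over the longest transcript and 0.026 with the trend fitted without the members, and 0.0733 (without rFSTL1 replicate 2) to 0.144 (without rFSTL1 replicate 1) with 1 library left out. For large subunit genes it was 0.0227 with the trend removed and 0.0237 with the block added, and for small subunit genes 0.00835 and 0.00674. The log2 ratio of Rpl36al to Rpl36a differed by -0.00745 to 0.0532 and that of Rps27l to Rps27 by -0.125 to -0.0872 with 1 library left out, where 7 libraries allow no exact permutation p under 0.0571.

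With the trend removed the fold change turned below 0 for Rpl10 (-0.0459), Rpl22 (-0.0472), Rpl26 (-0.0051), Rpl34 (-0.142), Rpl4 (-0.000544), Rplp0 (-0.0129), Rps14 (-0.0842), Rps18 (-0.0766), Rps19 (-0.0219), Rps19bp1 (-0.118), Rps2 (-0.00644) and Rps26 (-0.0671). Rpl34 was at -0.00262 with DESeq2, -0.00323 with all genes that had a count and -0.00394 with a minimum count of 50. With 1 library left out, fold changes ran from -0.0219 to 0.12 for Rpl22, -0.019 to 0.0125 for Rpl34, -0.00493 to 0.0225 for Rpl4, -0.00146 to 0.0381 for Rpl7, -0.0449 to 0.191 for Rps18, -0.0419 to 0.0606 for Rps19bp1, -0.0221 to 0.0422 for Rps26, 0.0252 to 0.0711 for Rplp0 and 0.002 to 0.0785 for Rpl10. The cause of these changes was not tested.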
